A study of Homo sapiens with 8 samples.

Results

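The RNA recovered by aldehyde-reactive probe (ARP) pulldown from wild-type (WT) human embryonic kidney cells was compared with the input RNA of the same cells. The sample labels give the line as HEK-293, and the study's text names its derivative HEK293T. All 4 libraries labelled WT were used, 2 of the input and 2 of the pulldown (IP), of 8 libraries in the series. Fragmented, DNase-treated total RNA carrying a spiked-in f5C oligonucleotide was incubated with ARP and anisidine, a small part was kept as the input, and the rest was bound to streptavidin beads. Both fractions had therefore been treated with the probe and carried the spike-in, and both came from unmodified cells with no drug or time course. Peaks of the 4 libraries sharing at least 1 nt on the same strand were joined, which gave 927 regions, against 1373 when all 8 libraries were joined. Of these regions 243 had a peak in all 4 libraries and could be tested.

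ARP is a hydroxylamine that carries biotin and reacts with aldehydes. In RNA an aldehyde is found in 5-formylcytidine (f5C), which the dioxygenase ALKBH1 makes by oxidizing 5-methylcytidine (m5C), and abasic sites can also react. The known carriers of f5C in human cells are mitochondrial tRNA-Met (mt-tRNA-Met), in which the modified wobble base lets 1 tRNA read both AUG and AUA codons, and cytosolic tRNA-Leu-CAA. The wobble base is the first base of the anticodon. The comparison of IP with input asks which RNAs are retained on the beads. By itself it cannot tell apart retention through f5C, through other aldehydes and through binding without the probe.

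The mt-tRNA-Met gene MT-TM, GRCh38 chrM:4402-4469 on the plus strand, and 4 of the nuclear regions whose sequence copies it are shown first, because their reads differ at few bases. In MT-TM the capitals mark the anticodon, which begins with the C that is formylated. In the copies the capitals mark the longest run that is identical with MT-TM and the bases next to it. The copies are on chromosome 1 (chr1:629565-629638, plus strand), on chromosome 7 (chr7:57186341-57186419, plus strand, and chr7:64111547-64111624, minus strand) and on chromosome 17 (chr17:22525824-22525896, plus strand).
MT-TM: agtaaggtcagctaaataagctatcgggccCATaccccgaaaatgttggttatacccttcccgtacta
chromosome 1 copy: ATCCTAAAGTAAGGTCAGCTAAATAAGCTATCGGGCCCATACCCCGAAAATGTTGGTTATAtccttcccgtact
chromosome 7 copy, plus strand: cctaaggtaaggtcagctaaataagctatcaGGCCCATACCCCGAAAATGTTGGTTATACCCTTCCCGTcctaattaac
chromosome 7 copy, minus strand: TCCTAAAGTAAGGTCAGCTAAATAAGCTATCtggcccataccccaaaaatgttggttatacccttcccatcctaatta
chromosome 17 copy: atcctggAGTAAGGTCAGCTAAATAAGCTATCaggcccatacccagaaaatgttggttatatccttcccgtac

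Nuclear tRNA genes with large differences are shown next, read from GRCh38 on the gene strand, with the anticodon in capitals. The genes for tRNA-Leu-CAA and tRNA-Tyr-GTA hold an intron just after the anticodon, which the mature tRNA lacks. TRL-CAA4-1 lies at chr1:248873855-248873960 (plus strand), TRL-CAA3-1 at chr6:27602569-27602675 (minus strand), TRY-GTA2-1 at chr2:27050782-27050870 (plus strand) and TRY-GTA5-4 at chr14:20663192-20663285 (minus strand). The gene for tRNA-Phe-GAA, TRF-GAA1-1, at chr6:28790722-28790794 (minus strand), has no intron. TRS-GCT3-1, at chr11:66348120-66348201 (plus strand), is shown as the locus that was lowest in the IP.
TRL-CAA4-1: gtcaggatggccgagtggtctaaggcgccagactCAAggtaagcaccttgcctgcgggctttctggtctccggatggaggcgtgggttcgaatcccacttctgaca
TRL-CAA3-1: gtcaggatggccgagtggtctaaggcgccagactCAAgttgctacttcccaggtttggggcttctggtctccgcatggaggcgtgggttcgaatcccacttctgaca
TRY-GTA2-1: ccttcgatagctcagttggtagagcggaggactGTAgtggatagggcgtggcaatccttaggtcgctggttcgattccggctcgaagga
TRY-GTA5-4: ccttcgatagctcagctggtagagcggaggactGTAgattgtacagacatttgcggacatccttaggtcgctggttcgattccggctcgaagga
TRF-GAA1-1: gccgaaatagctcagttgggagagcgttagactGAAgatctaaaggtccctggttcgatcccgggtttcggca
TRS-GCT3-1: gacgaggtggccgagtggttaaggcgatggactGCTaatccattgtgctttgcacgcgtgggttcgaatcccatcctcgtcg

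A peak was measured by its count of unique cDNA molecules, and no listed peak held fewer than 10. In its crosslinking data, run through the same pipeline, the study placed sites where reverse transcription stopped. Peak positions therefore need not show how far reads reached. The summed peak counts were 94218 and 98032 in WT input replicates 1 and 2 and 65413 and 48380 in WT IP replicates 1 and 2. Counts were divided by these totals and expressed as counts per 1000000 (CPM), so that 10 counts were worth between 102 and 207 CPM and a region without a listed peak lay below that or was not clustered. The totals cover called peaks only, and the depth of the libraries is not known from them. Replicates shared 463 of 699 regions in the inputs and 350 of 603 in the IPs. Pearson's r of the log2 counts over shared regions, which are not independent, was 0.947 and 0.935. A chi-square test of the same counts gave 6.43 and 5.87 per degree of freedom, so that replicates differed by more than sampling noise. The study calls its replicates biological, but nothing used here says that they came from separate cultures, and p-values measure the spread between these samples, which may be technical. None of 8 marker genes of HEK-293 cells had a peak in any of the 4 libraries, so the peaks did not check the cell line.

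The pulldown and the input overlapped in part. Of the 927 regions, 243 had a peak in all 4 libraries, 161 in both inputs and no IP, 78 in both IPs and no input, and 313 in 1 library alone, of which 163 were in an input and 150 in an IP. The other 132 had mixed patterns. Of the 243 regions in all 4 libraries, 118 (48.6%) passed an adjusted p of 0.05 in edgeR's quasi-likelihood test, 60 (24.7%) higher and 58 (23.9%) lower in the IP. The median log2 ratio of IP to input over the 243 regions was -0.13. With TMM factors the median was -0.20 with 59 higher and 63 lower, and with RLE factors it was -0.05 with 66 higher and 58 lower. With regions of at least 2 libraries tested and uncalled ones set to 0, 128 were higher and 216 lower of 614.

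**Figure D1:**
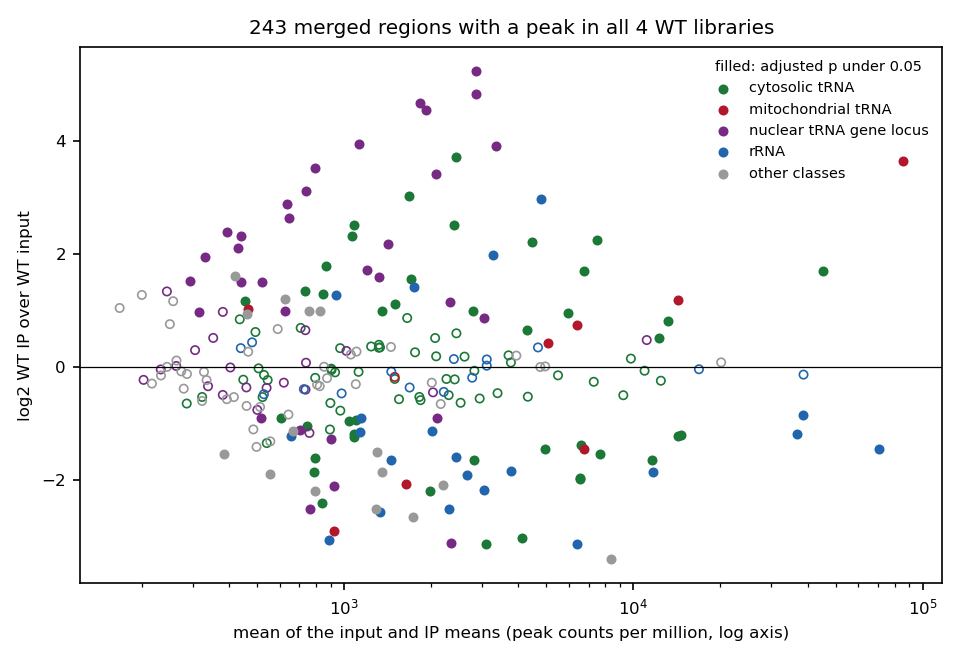
Log2 ratio of WT IP to WT input (y axis) against the mean of the input and IP levels in peak counts per 1000000 (x axis, log scale) for the 243 regions with a peak in all 4 libraries, coloured by RNA class, filled where the adjusted p was under 0.05. The region of MT-TI and MT-TM stands at the right with a log2 ratio of 3.64, and nuclear tRNA gene loci reach 5.24.

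The makeup of the libraries differed most in mitochondrial tRNA and rRNA. Mitochondrial tRNA held 4.83% and 5.16% of the peak counts of the inputs, against 18.7% and 21.2% in the IPs. Nuclear tRNA gene loci, which collect reads with no match in the mature tRNA reference, held 6.10% and 4.44% in the inputs, against 10.6% and 11.4% in the IPs. rRNA went the other way, with 41.8% and 41.5% in the inputs, against 26.2% and 22.9% in the IPs. In these 3 classes the inputs and the IPs did not overlap (exact permutation test, two-sided p = 0.333, the smallest that 2 against 2 libraries allow). The same held for mitochondrial rRNA, small noncoding RNA, mRNA exons, introns, lncRNA and regions antisense to tRNA or rRNA, so a lack of overlap does not set the 3 apart. Mature cytosolic tRNA held 34.3% ± 1.42 (SD, n = 2) of the input counts and 34.3% ± 2.39 of the IP counts, and its values overlapped. Small noncoding RNA held 3.44% ± 0.245 and 1.72% ± 0.300, introns 3.18% ± 0.0681 and 1.25% ± 0.322, and mitochondrial rRNA 2.53% ± 0.125 and 2.18% ± 0.0685 (SD, n = 2 each). Shares add to a whole, so a rise in 1 class lowers the others. Without the region of MT-TI and MT-TM, the difference in mitochondrial tRNA was 1.13 percentage points instead of 14.96, while that in nuclear tRNA gene loci was 7.76 instead of 5.74. The classes also covered different lengths: the nuclear tRNA gene loci covered 3991 and 4205 nt in the inputs and 4937 and 5402 nt in the IPs, and mitochondrial tRNA covered 740 and 860 nt against 519 and 451 nt.

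The mt-tRNA-Met region had the highest count in both IPs. The merged region of MT-TI (tRNA-Ile) and MT-TM, chrM:4261-4450 on the plus strand, held 1097 and 1339 input counts and 9387 and 8367 IP counts. This was 11643 and 13659 CPM against 143504 and 172943 CPM, and the fractions were far apart. The log2 ratio was 3.64 (SE 0.14, edgeR adjusted p 0.000284). Its share of all peak counts in the IPs was 14.4% and 17.3%. The anticodon of MT-TM lies at chrM:4432-4434, inside the IP peaks, while the input peaks, which ran from 4261 to 4445 and to 4444, spanned both genes without a break. The ratio of MT-TM alone cannot be had from these lists.

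Nuclear copies of MT-TM were listed in the IPs alone. Of 220 regions of the nuclear genome outside tRNA genes, rRNA and small noncoding RNA, 21 shared at least 20 identical nt with mitochondrial DNA or tRNA genes. Of these 19 matched mitochondrial DNA, 9 of them at MT-TM over 23 to 61 nt. None of the 9 had a peak in either input, all 9 had one in IP replicate 1 and 4 had one in IP replicate 2. The chromosome 1 copy held 385 and 143 counts in the IPs, the plus-strand chromosome 7 copy 373 and 195, the chromosome 17 copy 82 and 26 and the minus-strand chromosome 7 copy 23 and 14. The other 5, named after their values were seen, were an intergenic region of chromosome 17 (10 counts), 1 of chromosome X (27) and 1 of chromosome 2 (19), the pseudogene MTCYBP36 (28) and an intron of JAK2 (30), all in IP replicate 1. The 9 regions together held 977 and 378 counts, or 14936 and 7813 CPM, in the IPs. Whether these reads came from mt-tRNA-Met or from the copies was not tested. Of 10 regions that share runs with other parts of mitochondrial DNA, 9 had an input peak, 4 were tested, and 1 was higher and 1 lower. The higher one, on chromosome 1 (chr1:632691-632739), copies MT-TD and held 34 and 39 input counts and 70 and 32 IP counts (log2 ratio 1.20, adjusted p 0.0283, or 0.120 without IP replicate 1 and 0.0996 without input replicate 1). The lower one, the lncRNA ENSG00000289474, copies MT-TF and had a log2 ratio of -1.87, against -1.46 at MT-TF itself.

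The other mitochondrial tRNAs did not all change in the same direction. Mitochondrial tRNAs are cut out of long transcripts of both strands, and several neighbours share a merged region. Of 18 mitochondrial tRNA regions 9 were tested, of which 5 (55.6%) were higher and 3 (33.3%) lower. Over all tested regions 24.7% were higher and 23.9% lower. The region of MT-TH, MT-TS2 and MT-TL2 (tRNAs His, Ser and Leu) held 797 and 882 input counts and 1385 and 888 IP counts. Its log2 ratio was 1.18 (SE 0.12, adjusted p 0.000880). MT-TC and MT-TY (Cys and Tyr) held 446 and 474 against 531 and 382, with a log2 ratio of 0.74 (adjusted p 0.00503). In CPM the IPs lay above the inputs in each of these.

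MT-TA (Ala) held 31 and 28 input counts and 45 and 27 IP counts, with a log2 ratio of 1.02 (adjusted p 0.0250). MT-TT (Thr) held 395 and 442 against 389 and 276, with a log2 ratio of 0.42 (adjusted p 0.0436). Neither passed when any 1 of the 4 libraries was left out, where the adjusted p lay between 0.0573 and 0.115 for MT-TA and between 0.0571 and 0.344 for MT-TT. Without IP replicate 1 the log2 ratios were 0.86 and 0.39. MT-TS1 (Ser) held 114 and 193 against 101 and 61, and its log2 ratio of -0.18 (SE 0.31, adjusted p 0.671) did not pass.

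Lower in the IP were MT-TP, MT-TG and MT-TF. MT-TP (Pro) held 149 and 163 input counts and 11 and 13 IP counts, with a log2 ratio of -2.91 (SE 0.31, adjusted p 0.00115). MT-TG (Gly) held 247 and 261 against 43 and 29 in its main region, with a log2 ratio of -2.07 (SE 0.20, adjusted p 0.000880). MT-TF (Phe) held 943 and 955 against 253 and 159, with a log2 ratio of -1.46 (SE 0.14, adjusted p 0.000866), in a region from chrM:575 to chrM:704 that reaches into the 12S rRNA gene MT-RNR1. The inputs lay above the IPs without overlap in all 3.

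Where a peak was missing, values are given without a test. MT-TN (Asn) held 66 and 35 counts in the IPs and had no input peak. MT-TR (Arg) held 76 and 79 in the inputs and had no IP peak. MT-TW (Trp) held 126 and 65 in the inputs and 28 in IP replicate 1, and MT-TD (Asp) 111 and 138 in the inputs and 11 in IP replicate 1. MT-TK (Lys) was listed in IP replicate 1 alone, with 13 counts, MT-TQ (Gln) in input replicate 1 with 11 and MT-TE (Glu) in input replicate 2 with 24. Small second regions of MT-TG and MT-TR held 12 and 10 counts in 1 input each. MT-TV (Val) and MT-TL1 (Leu) had no region of their own. The 14 heavy-strand mitochondrial tRNAs gave 5 tested summed RNAs and the 8 light-strand ones gave 4, where neighbours that share a merged region count as 1 RNA. None of the 5 tRNAs with a taurine-modified wobble base was tested.

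**Figure D2:**
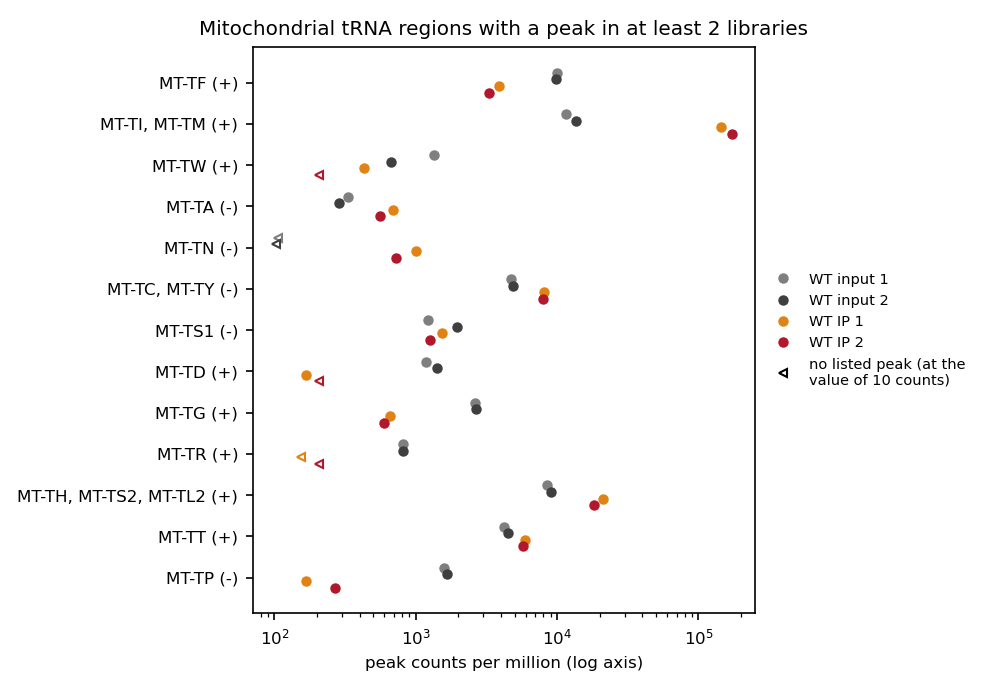
Peak counts per 1000000 (x axis, log scale) of the mitochondrial tRNA regions with a peak in at least 2 libraries, in genome order with the strand in brackets, 1 point per library, and an open triangle at the value of 10 counts where no peak was listed. MT-TI with MT-TM reaches 143504 and 172943 CPM in the IPs, and MT-TP, MT-TG and MT-TF lie lower in both IPs than in both inputs.

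Mature tRNA-Leu-CAA was higher in the IP at every reference that could be tested. Summed over its references, tRNA-Leu-CAA held 237 and 263 input counts and 1068 and 844 IP counts, or 2599 ± 118 and 16886 ± 791 CPM (SD, n = 2 each), with a log2 ratio of 2.70 (SE 0.12, adjusted p 0.000105). Reference 4-1 held 30 and 36 counts against 273 and 238, with a log2 ratio of 3.72 (SE 0.21). Reference 3-1 held 31 and 39 against 189 and 150 (3.04), reference 2-1 held 28 and 34 against 124 and 87 (2.51), and reference 1-1 with its identical copy held 148 and 154 against 459 and 369 (2.22). All 4 passed, with adjusted p-values from 0.000307 to 0.000866, and in none did the fractions overlap. Reference 6-1 had 23 counts in IP replicate 1 alone. The references differ at few bases, so the split of reads between them is uncertain. In references 2-1 and 3-1 the input peaks began at position 2 of the mature tRNA, and the IP peaks began at position 27 and ended at 44 or 45, around the anticodon.

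The 5 nuclear gene loci of tRNA-Leu-CAA were all higher too. TRL-CAA4-1 held 15 and 22 input counts and 329 and 293 IP counts, with a log2 ratio of 4.84 (SE 0.26). TRL-CAA3-1 held 12 and 18 against 230 and 186 (4.55), TRL-CAA1-1 held 15 and 11 against 114 and 120 (3.94), TRL-CAA1-2 held 33 and 35 against 240 and 190 (3.42) and TRL-CAA2-1 held 15 and 19 against 70 and 56 (2.64). Their adjusted p-values lay between 0.000307 and 0.000880, and their sum had a log2 ratio of 4.00 (SE 0.15, adjusted p 0.000105). The difference between loci and mature tRNA was not tested. In the sequence of TRL-CAA4-1 shown above, the IP peaks ran from gene position 58 to 98 in replicate 1 and from 2 nt before the gene to position 98 in replicate 2, and the anticodon is at positions 35 to 37. In TRL-CAA3-1 they ran from 5 nt before the gene to position 97 in both, whereas the input peaks ended at position 75.

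Mature cytosolic tRNAs went both ways. Counts were summed per anticodon and per other RNA, and of 138 RNAs tested 59 (42.8%) passed the threshold, 28 (20.3%) higher and 31 (22.5%) lower. Of 46 anticodons 38 were tested, with 8 higher, 12 lower and a median of -0.16, against -0.07 over all RNAs. The 8 that were not tested, among them Pro-CGG and Val-AAC, lacked a peak in IP replicate 2. Beside Leu-CAA, the higher ones were Ala-AGC (log2 ratio 2.33, SE 0.62), Tyr-GTA (2.09), Arg-TCG (1.69), Thr-AGT (1.20), Ile-TAT (1.02), Phe-GAA (0.82) and His-GTG (0.51).

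Arg-TCG had the highest cytosolic tRNA counts in the IPs. It held 2457 and 3416 input counts and 6047 and 5048 IP counts (SE 0.18, adjusted p 0.00194). Its references 4-1 (log2 ratio 2.51) and 2-1 (2.26) and the Tyr-GTA reference 4-1 (2.33) were among the most enriched regions. Tyr-GTA, whose wobble base is changed to queuosine in mature tRNA, held 43 and 37 against 106 and 94 (adjusted p 0.00925). Ala-AGC, whose wobble A is changed to inosine, held 82 and 25 against 181 and 140 (adjusted p 0.0331). Its reference 2-1 had a log2 ratio of 1.79 and an adjusted p of 0.0157, and did not pass without IP replicate 1 (0.0909) or IP replicate 2 (0.0928). Phe-GAA held 902 and 935 against 979 and 904, which in CPM was 9556 ± 25.3 and 16826 ± 2630 (SD, n = 2 each). His-GTG did not pass without input replicate 1 (adjusted p 0.0828) or 2 (0.176), nor Ile-TAT without input replicate 1 (0.0814) or IP replicate 2 (0.199).

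The initiator tRNA was the lowest of the mature tRNAs. tRNA-iMet-CAT, which starts translation, held 505 and 592 input counts and 31 and 39 IP counts, with a log2 ratio of -3.17 (SE 0.32, adjusted p 0.00151). Elongator tRNA-Met-CAT held 341 and 467 against 325 and 397, with a log2 ratio of 0.65 (adjusted p 0.134). It passed with the replicate number as a block (0.62, adjusted p 0.0142), without input replicate 2 (0.86) and without IP replicate 1 (0.97). tRNA-Lys-CTT held 2726 and 3035 against 573 and 410 (log2 ratio -1.80, SE 0.10, adjusted p 0.000285). All 3 glycine anticodons were lower, CCC at -1.56, GCC at -1.44 and TCC at -1.39. Pro-TGG was at -1.37, Glu-CTC at -1.24 and Asp-GTC at -1.15. Pro-TGG did not pass without IP replicate 2 (-0.98, adjusted p 0.109), and Glu-CTC with any 1 library left out (-1.39 to -1.11, adjusted p 0.0828 to 0.234). Among single references, Ser-GCT-3-1 held 560 and 856 against 49 and 51, with a log2 ratio of -3.04. Also among the lowest were Lys-CTT-4-1 (-2.42), Gly-CCC-1-1 (-2.21), Lys-CTT-1-1 (-1.99), Gly-GCC-2-1 (-1.97), Pro-TGG-3-1 (-1.86) and Lys-CTT-2-1 (-1.65).

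Lists of anticodons with a known wobble or neighbouring modification were counted against the shares over all RNAs given above. In the carriers known before the study f5C is at the wobble base. Of 14 tested anticodons that begin with C, 1 was higher, Leu-CAA, and 6 were lower, with a median of -0.29. Among the 4 tested anticodons with a wobble A, 2 were higher and 1 lower. Among the 4 queuosine tRNAs, 2 (Tyr-GTA and His-GTG) were higher and 1 (Asp-GTC) lower. Both tested tRNAs with a known m5C at position 38 of the anticodon loop, Asp-GTC and Gly-GCC, were lower. Neither of the 2 tested tRNAs with m5C at position 72, Cys-GCA and Thr-TGT, passed. Of 9 tRNAs listed here from the study's text and its supplementary peak lists, which rest partly on these samples, 1 was higher (Arg-TCG), 3 were lower (iMet-CAT, Gly-CCC and Glu-CTC) and 5 did not pass. The 5 had log2 ratios of 0.65 (Met-CAT), 0.04 (Trp-CCA), -0.09 (Gln-CTG), -0.23 (Val-CAC) and -0.36 (Ser-CGA). Val-CAC passed as lower without IP replicate 2, at -0.46, and Met-CAT as higher in the fits given above. Leu-CAG, which the study also examined and which is not among the 9, was lower at -0.43 (adjusted p 0.0374). Among its pulldown hits the study's text names Met-CAT, Val-CAC, Ser-CGA, Trp-CCA and an Arg-TTC. It took Glu-CTC, Gly-CCC and Gln-CTG from its crosslinking data. The study's pulldown hits were peaks judged against the input and the ALKBH1 knockout, whereas the values here are sums per anticodon against the input alone. The 2 measures are therefore not alike.

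**Figure D3:**
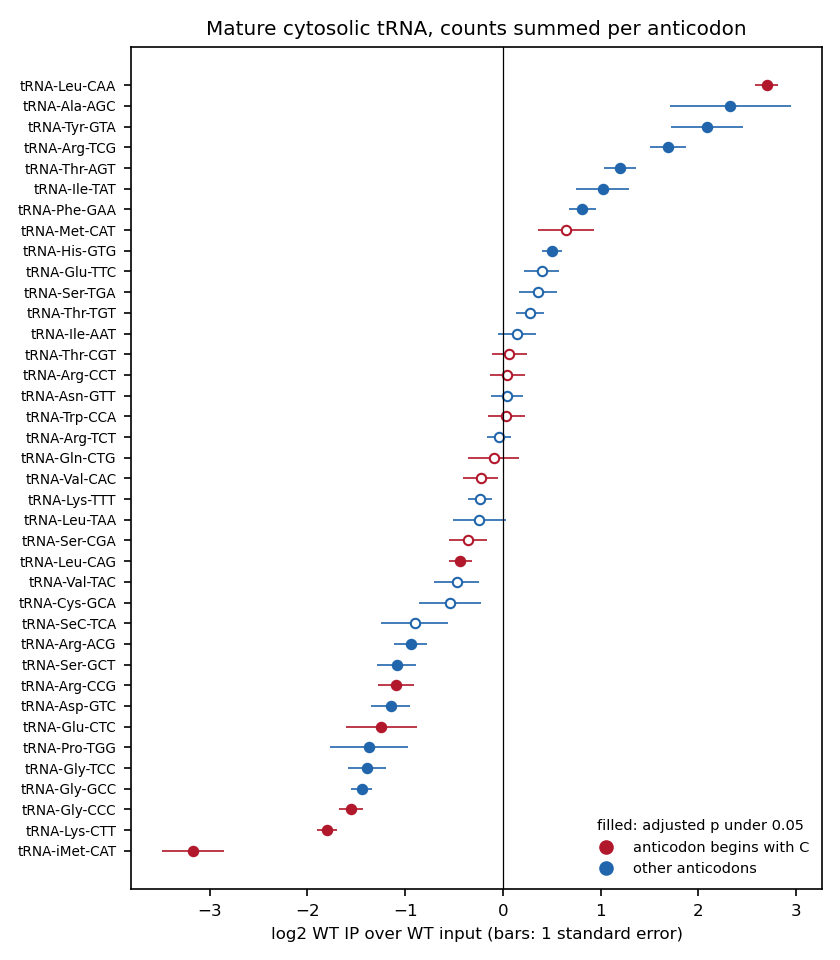
Log2 ratio of WT IP to WT input with 1 standard error (x axis) for the 38 tested anticodons of mature cytosolic tRNA (y axis), red where the anticodon begins with C and filled where the adjusted p was under 0.05. Leu-CAA is highest at 2.70 and iMet-CAT lowest at -3.17.

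The position of a region in the tRNA also differed with the direction. Regions that began at mature position 5 or before were lower in 18 and higher in 7 of 49 tested, with a median of -0.57. Regions that began later were higher in 14 and lower in 3 of 43 tested, with a median of 0.34. The lower references iMet-CAT-1-1 (positions 2 to 55), Gly-GCC-2-1 (2 to 54), Lys-CTT-1-1 (2 to 40) and Lys-CTT-2-1 (2 to 28) all reached the 5′ end. The higher Arg-TCG-4-1 (26 to 64) and Arg-TCG-2-1 (19 to 64) did not. Of the 8 higher cytosolic tRNA regions with the largest log2 ratios, 4 also began at position 5 or before, Leu-CAA-3-1 and Leu-CAA-2-1 (2 to 50), Leu-CAA-1-1 (4 to 49) and Ala-AGC-2-1 (4 to 45). The start of a joined region is that of the library whose peak reached nearest to the 5′ end, whichever the fraction. This split was chosen with values in view, and regions of 1 anticodon share reads.

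Nuclear tRNA gene loci gave the largest ratios of all. Reads reach these loci when they find no match in the mature reference, as with leader, intron or trailer sequence of unprocessed transcripts. They were kept only where they mapped once in the genome. Of 157 regions on the gene strand, 75 began after gene position 5. TRF-GAA1-1, which has no intron, lay at positions 25 to 62 of 73 and so showed no leader, intron or trailer. Why such reads missed the mature reference was not tested. Of 163 regions at these loci 53 were tested, with a median of 0.86. Of the 53, 25 (47.2%) were higher and 7 (13.2%) lower, against 24.7% and 23.9% of all tested regions. A further 27 had peaks in both IPs alone and 18 in both inputs alone, against 78 and 161 of all 927 regions. The strand of the gene could not be read for 6 regions, and none of the other regions lay on the strand opposite to its gene.

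Introns are found in genes of 4 families, Leu-CAA, Tyr-GTA, Arg-TCT and Ile-TAT. The Arg-TCT gene TRR-TCT4-1, which was not tested, is only 74 nt long, against 85 nt for TRR-TCT1-1. All 9 tested loci of these families were higher, with log2 ratios from 2.10 to 4.84 and a median of 3.92. Among the 9, 5 were the Leu-CAA loci given above, 3 were of Tyr-GTA and 1 was of Arg-TCT, and no Ile-TAT locus was tested. A further 3 had peaks in both IPs alone and none in both inputs alone. Over the 44 tested loci of other families, 16 were higher and 7 lower, with a median of 0.29, and 24 had peaks in both IPs alone against 18 in both inputs alone. The difference between the families was not tested. Of the mature forms of the 4 families, 3 were higher, and Arg-TCT, at -0.04, did not pass.

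TRY-GTA5-4 held 39 and 41 input counts and 420 and 299 IP counts, with a log2 ratio of 3.92 (SE 0.16, adjusted p 0.000284). Its peaks lay between 8 nt before the gene and position 89 in the inputs, or 91 in the IPs. This range of peaks does not show that single reads covered the unspliced gene. TRY-GTA2-1 held 13 and 13 against 212 and 184, with a log2 ratio of 4.68 (SE 0.24, adjusted p 0.000307). Both IP peaks of TRY-GTA2-1 lay at positions 52 to 75, after the anticodon at 34 to 36, while the input peaks began 10 nt before the gene. TRY-GTA1-1 held 154 and 200 counts in the IPs and had no input peak. For the Leu-CAA and Tyr-GTA loci, all peaks of 1 library in a locus were taken as 1 range. Of these ranges, 9 of 26 in the IPs and 4 of 17 in the inputs began after the anticodon.

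TRF-GAA1-1, a tRNA-Phe gene, had the largest log2 ratio of all 243 regions. It held 14 and 14 input counts and 270 and 339 IP counts, with a log2 ratio of 5.24 (SE 0.37, adjusted p 0.000428). Its IP peaks ran from position 25 to 59 and to 62, over the anticodon, and the input peaks from 26 to 53. TRC-GCA2-2, a tRNA-Cys gene, held 13 and 11 against 88 and 76, with a log2 ratio of 3.53 (SE 0.28, adjusted p 0.000598). Like TRF-GAA1-1 it was far above the input in both IPs.

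Fewer loci were lower. TRS-GCT3-1 held 464 and 340 input counts and 39 and 17 IP counts, with a log2 ratio of -3.12 (SE 0.34, adjusted p 0.00120), and all its peaks began inside the gene, at position 26 in the inputs. TRV-TAC3-1 held 93 and 157 against 10 and 15 (-2.51), and TRI-AAT1-1 held 188 and 99 against 27 and 13 (-2.12). The other 4 were alanine tRNA genes, TRA-TGC5-1 (-1.28), TRA-TGC4-1 (-1.11), TRA-AGC4-1 (-0.90) and TRA-AGC5-1 (-0.90). TRV-TAC3-1 did not pass without IP replicate 1 (-2.06, adjusted p 0.0607), nor TRI-AAT1-1 without IP replicate 1 (0.0759) or IP replicate 2 (0.107). None of the 4 alanine genes passed without input replicate 1 (adjusted p 0.0626 to 0.126) or with DESeq2 (0.0774 to 0.428). Except for the 7 named, no tested locus passed as lower.

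**Figure D4:**
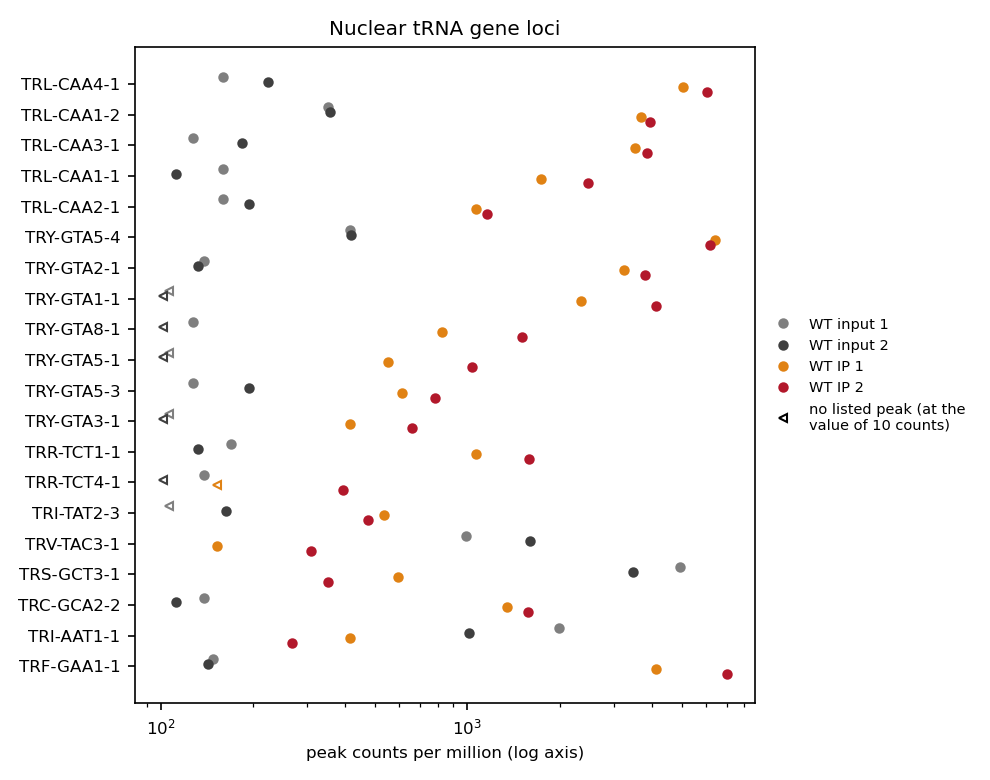
Peak counts per 1000000 (x axis, log scale) at nuclear tRNA gene loci (y axis) of the intron-bearing families and at 5 other named loci, 1 point per library, with an open triangle at the value of 10 counts where no peak was listed. Both IPs lie above both inputs at the 9 tested loci of intron-bearing families, and below them at TRV-TAC3-1, TRS-GCT3-1 and TRI-AAT1-1.

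Regions that began before the gene took in leader sequence in some library, not always in an IP. They were higher in 17 and lower in 3 of 31 tested, with a median of 1.16. Without the intron-bearing families they were higher in 9 and lower in 3 of 23, with a median of 0.65. Regions that began after gene position 5 were higher in 5 and lower in 4 of 18, with a median of -0.31. Over all 53 tested loci 25 (47.2%) were higher and 7 (13.2%) lower, with a median of 0.86. The start of a joined region is that of the library reaching furthest upstream, whichever the fraction. In TRY-GTA2-1 only the input peaks began before the gene, and in TRL-CAA1-2 the IP peaks began at positions 6 and 34. In TRL-CAA3-1 the peaks of both fractions began before the gene.

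Mature tRNA and gene loci of the same anticodon often differed. In 25 anticodons both were tested, and the value of the genes was above that of the mature tRNA in 17. Pearson's r between the log2 ratios was 0.33 and Spearman's rho was 0.14, as a description over anticodons that share libraries. Lys-CTT was lower as mature tRNA (-1.80) and higher at its genes (1.93, with 156 and 132 input counts and 323 and 316 IP counts). Arg-ACG was likewise at -0.94 and 2.25. Arg-TCG was higher as mature tRNA (1.69), and its genes did not pass (0.33, adjusted p 0.594). Ser-GCT was lower in both, at -1.09 and -3.37. Phe-GAA was higher in both, at 0.82 and 4.57.

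Among the rRNA regions that passed the test, most were lower in the IP. Of 231 rRNA regions 36 were tested, with a median of -0.48. Of the 36, 4 (11.1%) were higher and 17 (47.2%) lower, against 24.7% and 23.9% of all tested regions. A further 33 had peaks in both inputs alone and 29 in both IPs alone, against 161 and 78 of all 927 regions. The rRNA regions listed in 1 fraction alone thus leaned less to the inputs than all regions did. Summed over its regions, 28S rRNA had a log2 ratio of -0.52 (adjusted p 0.0697) and did not pass, and 18S rRNA was lower at -0.48 (adjusted p 0.0292). The regions at the 5′ ends of all 4 mature rRNAs were lower. That of 18S rRNA, from 2 nt before position 1 to position 26, held 1134 and 1074 input counts and 94 and 56 IP counts, with a log2 ratio of -3.14 (SE 0.17, adjusted p 0.000307). That of 28S rRNA held 1749 and 1772 against 334 and 239 (-1.87, SE 0.10). The 5.8S region was at -1.45 and the 5S region at -1.19. The 5.8S region covers most of the molecule and held the largest count in the inputs, 10157 and 9736, against 2645 and 1705 in the IPs.

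Within the rRNAs, 18S positions 1309 to 1345 had the largest increase. The 18S region held 95 and 114 input counts and 639 and 350 IP counts, with a log2 ratio of 2.97 (SE 0.21, adjusted p 0.000428). The input peaks covered positions 1342 and 1343 only, while the IP peaks ran from 1309 and from 1325 to 1345, so the fractions were summed over different lengths. Its sequence is given with the merged region in capitals, read from a 45S copy on GRCh38 chromosome 21 (chr21:8438164-8438240, plus strand).
18S rRNA: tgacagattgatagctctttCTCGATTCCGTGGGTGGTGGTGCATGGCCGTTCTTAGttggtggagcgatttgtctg

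The other 3 higher regions were in 28S rRNA. Positions 146 to 157 held 126 and 129 input counts and 386 and 221 IP counts (log2 ratio 1.98, SE 0.19). Positions 2427 to 2438 held 106 and 77 against 199 and 98 (1.41), and positions 3173 to 3175 held 59 and 47 against 106 and 50 (1.27). Positions 2427 to 2438 did not pass without IP replicate 1 (1.08, adjusted p 0.0833), nor 3173 to 3175 without IP replicate 1 (0.90) or input replicate 2 (1.09). The 28S regions that were lowest began at positions 2738 (156 and 147 against 10 and 11, log2 ratio -3.06), 3637 (-2.57), 314 (-2.51), 4260 (-1.91) and 2339 (-1.84). In 18S rRNA, positions 1019 to 1027 held 483 and 480 against 84 and 44 (-2.18).

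Several rRNA regions were listed in 1 fraction only. In both inputs alone were 18S positions 638 to 651 (331 and 351 counts), 1618 to 1622 (233 and 280), 1567 to 1579 (68 and 488), 522 to 526 (181 and 167), 75 to 78 (160 and 176) and 1660 to 1661 (123 and 137), and 28S positions 4864 to 4866 (155 and 139). In both IPs alone were 18S positions 885 to 900 (49 and 193) and 1048 to 1051 (56 and 157), and 28S positions 1021 to 1034 (145 and 46) and 425 to 433 (95 and 77). Of 28 regions of the mitochondrial rRNAs 14 had peaks in both inputs alone, among them 1498 to 1555 of chromosome M in MT-RNR1 (171 and 252 counts). Summed over its 6 regions, MT-RNR1 held 231 and 319 input counts and 11 and 10 IP counts, the latter from 2 different regions. Its log2 ratio of -3.93 (SE 0.38, adjusted p 0.00148) was the lowest of the 138 tested RNAs. The single mitochondrial rRNA region with a peak in all 4 libraries, in MT-RNR2, had a log2 ratio of 0.08 and did not pass.

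**Figure D5:**
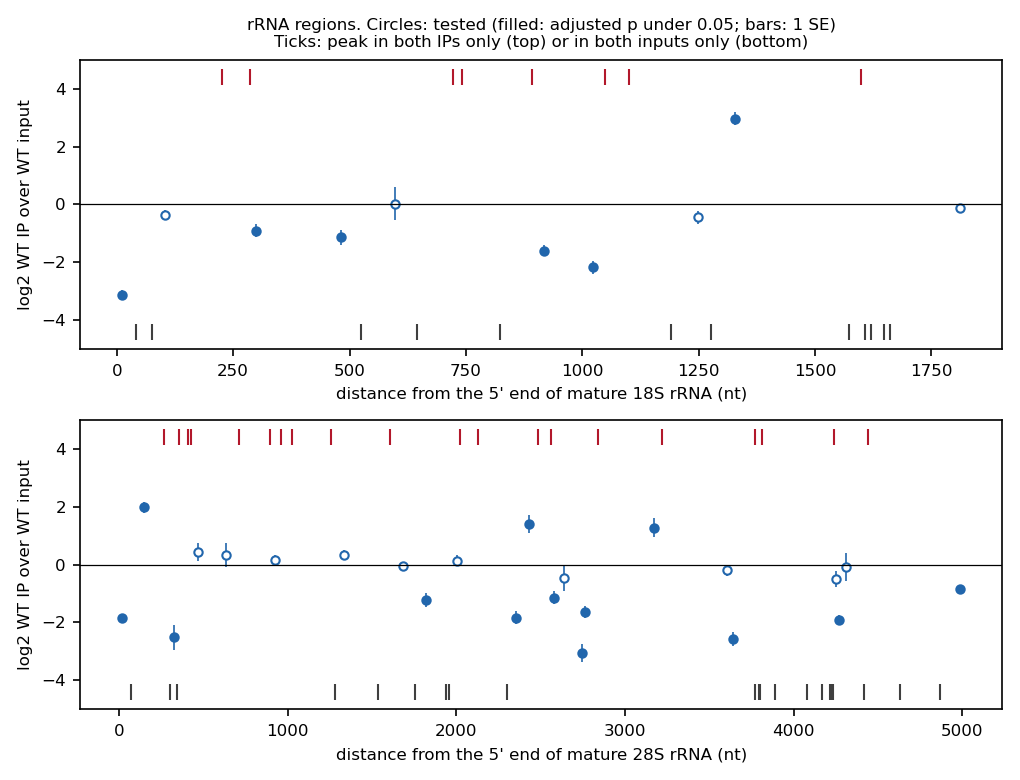
Log2 ratio of WT IP to WT input (y axis) of tested regions against the distance from the 5′ end of mature 18S rRNA (upper) and 28S rRNA (lower) in nt, with 1 standard error and filled where the adjusted p was under 0.05. Ticks mark regions with a peak in both IPs only (top) or in both inputs only (bottom), and the 18S region at 1309 to 1345 stands alone above 2 in 18S rRNA.

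Small noncoding RNA was listed mostly in the inputs. Of 104 regions 48 had peaks in both inputs and no IP, and none had peaks in both IPs and no input. The IP lists are shorter, and their minimum of 10 counts is worth more CPM, which bears on such counts. Over all classes 161 of 927 regions had peaks in both inputs alone. Of 15 tested 1 was higher and 5 lower, against 24.7% and 23.9% of all regions tested. SNORD118, the U8 small nucleolar RNA of 28S and 5.8S processing, held 121 and 131 input counts and 22 and 11 IP counts, with a log2 ratio of -2.19 (SE 0.29, adjusted p 0.00252). RNU5D-1, a U5 RNA of the spliceosome, held 304 and 380 against 55 and 40 (-2.09), and the vault RNA VTRNA1-2 held 79 and 89 against 12 and 14 (-1.90). SNORD57 was the higher one, with 57 and 49 against 76 and 50 (0.99, adjusted p 0.0236). It did not pass with any 1 library left out (adjusted p 0.0621 to 0.205).

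Intron, lncRNA and intergenic regions gave few tests. The introns that were lower all held narrow peaks of at most 10 nt, and so did the LINC00861 intron, which was higher. A region in NUTF2 (chr16:67863442-67863451, plus strand) held 1328 and 1607 input counts and 74 and 86 IP counts, with a log2 ratio of -3.40 (SE 0.25, adjusted p 0.000428), the lowest of all 243 regions. A region in DSC2 held 273 and 300 against 32 and 22 (-2.65) and 1 in ENSG00000289809 held 198 and 224 against 22 and 21 (-2.51). An intron of LINC00861 was higher, with 45 and 52 against 56 and 56 (0.99, adjusted p 0.0297). Of 21 intergenic regions tested 3 were higher and none was lower, the chromosome 1 copy of MT-TD given above, 1 on chromosome 20 with 23 and 17 against 53 and 22 (1.61) and 1 on chromosome 19 with 29 and 32 against 43 and 27 (0.94). The LINC00861 intron did not pass without input replicate 1, input replicate 2 or IP replicate 2 (adjusted p 0.0949 to 0.191), the chromosome 20 region without IP replicate 1 (0.111), and the chromosome 19 region with any 1 library left out (0.0630 to 0.147). Of 12 lncRNA regions 8 were in both inputs alone. Neither of the 2 tested mRNA exon regions passed in the fit per region. In the fit summed per RNA, NUDC passed as higher, with 11 and 10 input counts against 16 and 10 IP counts (log2 ratio 1.04, adjusted p 0.0324). EIF4H did not pass there (1.17, adjusted p 0.0574). The CSMD1 intron passed as higher in that fit, with 11 and 11 against 13 and 18 (1.29, adjusted p 0.0435). These counts lie near the list minimum of 10.

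Outside tRNA and rRNA, the regions with most counts in both IPs and none in the inputs were 2 copies of MT-TM, given above, and an intron of SGPL1. The SGPL1 region (chr10:70817633-70817637, plus strand) held 124 and 98 counts. It shares 14 nt with the 3′ end of MT-TM. Runs of at least 14 nt shared with mitochondrial DNA, 45S rRNA or tRNA genes were found in 33 of the 220 regions searched.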

How the data were processed

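The deposited values are cDNA counts of peaks, which the authors made with the consensus mapping pipeline of iCount. Duplicate reads were dropped by their molecular barcodes, STAR mapped reads to tRNA and rRNA and the rest to GRCh38 with unique hits kept, and Paraclu called peaks in each library. The authors deposited 2 peak lists per library, and neither is normalized. Only listed peaks entered, so sums move with what was called, isodecoders share reads, and near-identical loci can lose them. The spike-in was not analysed here.

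All 25 chromosome names of the WT genome lists were in the GRCh38 FASTA. Regions were annotated with GENCODE release 44 and RefSeq patch 14, and sequences were read from that genome. The strand of tRNA genes, which RefSeq did not give, was read from their sequence. Counts were fitted with edgeR 4.0.16 in R 4.3.3 (glmQLFit and glmQLFTest, two-sided, Benjamini-Hochberg adjusted p under 0.05, library sizes set to summed peak counts, normalization factors of 1, WT libraries only) per region and, in a second fit, summed per RNA. The standard error was the log2 ratio divided by the square root of F. The fit was tested on simulated data. Shares were compared by exact permutation. There were 13 alternatives per fitted result and 7 per share, including DESeq2 1.42.0. Peaks were handled in Python 3.11.15 with scipy 1.17.1 and numpy 2.4.6, and plots were made with matplotlib 3.10.9.

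Named were mt-tRNA-Met, tRNA-Leu-CAA, every mitochondrial tRNA, 9 tRNAs from the study's text and supplementary peak lists, up to 8 regions per direction in each of cytosolic tRNA, tRNA gene loci, rRNA and all other classes together, up to 8 anticodons per direction, and the 8 highest regions listed in both libraries of 1 fraction alone. Members and lists were chosen with earlier results of these data known. Names outside this rule were chosen after their values were seen: the loci of TRY-GTA and other families, rRNA 5′ ends, copies of mitochondrial DNA, tRNA-Leu-CAG, and gene sums, MT-RNR1 among them.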

Additional observations from a re-analysis of the deposited data

How the results depend on the processing

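The log2 ratio of the mt-tRNA-Met region (3.50 to 3.77) and that of summed tRNA-Leu-CAA (2.64 to 2.75) passed under all 13 alternatives. The count of regions past the threshold moved from 118 to 344 with regions of at least 2 libraries tested and uncalled ones at 0 (128 higher and 216 lower), and to 254 with uncalled ones at the lowest listed count (147 and 107), where 614 regions were tested instead of 243. The count of RNAs moved from 59 to 148 with uncalled ones at 0 (38 and 110), where 307 were tested. DESeq2 called 88 regions, 45 higher and 43 lower, and a mean count of at least 50 gave 42 higher and 55 lower. Leaving out 1 library gave 98 to 109 regions and 51 to 58 RNAs. With peaks of at least 100 counts the difference in share was 19.1 percentage points for mitochondrial tRNA, 4.26 for tRNA gene loci and -21.1 for rRNA, and without the region of MT-TI and MT-TM it was 1.13, 7.76 and -13.1, and 5.98 for cytosolic tRNA against -0.0647. The replicate number marks no stated batch. Deviations of same-numbered libraries had a correlation of 0.54 over 243 regions, and the replicate block gave 155 regions (75 higher and 80 lower) and 70 RNAs, left mt-tRNA-Met at 3.64 and tRNA-Leu-CAA at 2.70, and ended no named call. With the block summed tRNA-Met-CAT (0.62), MT-TT (0.42) and MT-TA (1.01), which did not pass without it, passed. No named result reversed where it could be fitted. Of the 95, 74 were fitted with peaks of at least 20 counts, 78 with a merge by at least 10 nt and 86 with a mean count of at least 50. TRF-GAA1-1, with 14 counts in each input, has no input peak of at least 20 counts. DESeq2 ended 12 calls of 95 named results, uncalled ones at 0 ended 9, and leaving out 1 library ended 10 to 14. What sets the low counts is the list minimum of 10 counts, and a region without a peak is not shown to be absent. The exact permutation test used for the shares cannot go below a p of 0.333 with 2 libraries per fraction.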
